A study of Mus musculus with 7 samples.

Results

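Bipolar cells of the mouse retina are described here through 8 genes that mark their subtypes or set their identity. The genes are Vsx1, Cabp5, Scgn, Isl1, Bhlhe23, Lhx4, Irx5 and Irx6. They were chosen with earlier results of these data known. Their rows were taken by gene symbol from the 54532 gene IDs of a count table, and all 8 symbols had 1 row each. The table holds 7 retina libraries made on day 28 from poly-A selected RNA. Of these, 4 came from mice infused with Ang II (angiotensin II, a peptide hormone that raises blood pressure) and 3 from mice infused with saline. The series text gives all mice as ApoE-/-, whereas the genotype label of every sample is WT. Apoe itself had between 150 and 406 counts in each library, which does not settle the genotype. The sources used here do not give age, strain, dose or the number of mice per library, and p-values measure the spread between these libraries, which may be technical.

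Bipolar cells carry signals from photoreceptors to the inner retina. Rod bipolar cells and ON cone bipolar cells depolarise to light through the glutamate receptor mGluR6, while OFF cone bipolar cells use ionotropic glutamate receptors. Homeodomain and basic helix-loop-helix transcription factors separate these subtypes during development and stay on in the adult. EF-hand proteins that bind calcium, such as those encoded by Cabp5 and Scgn, mark overlapping sets of the mature cells.

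RefSeq promoters on GRCm38.p6 (the mm10 build) were matched for 6 of the 8 genes: Vsx1, Cabp5, Scgn, Isl1, Bhlhe23 and Lhx4. In the 250 bases before each RefSeq start, 3 short words were searched on both strands. They were TAATCC, the core word of OTX and CRX homeodomain factors, TAATTA, a core word of many homeodomain factors, and CATATG, an E-box of the BHLHE22 and BHLHE23 kind. TAATCC was present in 2 of the 6 and in 6.25% of 32851 promoters. TAATTA and CATATG were in 0 of the 6, against 4.84% and 3.46% of promoters. The promoters that hold TAATCC are those of Cabp5 and Isl1, and they are shown for that reason, 5′ to 3′ on the strand of the gene, with TAATCC in capitals. That of Cabp5 is chr7:13397905-13398154 on the plus strand, with the word starting 160 and 41 bases before the start. That of Isl1 is chr13:116309689-116309938 on the minus strand, with the word 177 bases before the start. No stretch of these promoters matched more than 1 of the 3 words, and a match describes letters alone.
Cabp5: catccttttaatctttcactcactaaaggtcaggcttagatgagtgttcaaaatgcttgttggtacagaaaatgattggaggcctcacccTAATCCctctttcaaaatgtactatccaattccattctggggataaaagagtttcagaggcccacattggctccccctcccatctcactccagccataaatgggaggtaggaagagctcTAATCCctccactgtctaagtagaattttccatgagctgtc
Isl1: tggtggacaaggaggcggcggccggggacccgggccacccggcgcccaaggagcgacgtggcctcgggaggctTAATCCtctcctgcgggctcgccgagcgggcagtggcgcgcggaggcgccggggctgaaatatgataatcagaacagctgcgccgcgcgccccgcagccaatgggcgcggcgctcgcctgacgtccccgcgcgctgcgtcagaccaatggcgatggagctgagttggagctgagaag

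Among the 7 libraries, 2 stood apart by the level of Egr1 or Gfap. Saline replicate 2 had Egr1, an immediate early gene, at 366.8 CPM, against 13.8 to 93.5 CPM in the other 6. It also had the smallest total and the fewest genes with a count, 21260 against 24024 to 24846 in the other 6. Ang II replicate 3 had Gfap, a filament gene of reactive glia, at 79.8 CPM, against 6.84 to 9.60 CPM elsewhere. Results that rest on these libraries are given with and without them. Saline replicate 3 also mattered for the calls over all genes. With it left out, the edgeR test described below called 117 genes, against 0 with all 7 libraries, and 0 of the 8.

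All 8 transcripts were counted in every library, and 0 of the 8 passed the test between Ang II and saline. Of the 8, 5 lay lower in Ang II, led by both calcium-binding genes and Isl1 at about the same size, while Lhx4, Irx5 and Irx6 had log2 fold changes of 0.10, 0.04 and 0.06. Total counts per library ran from 14655431 to 17563493. Rod markers, which define the tissue, summed to between 59251 and 77691 CPM (read counts scaled to library size, as edgeR gives them). With edgeR's quasi-likelihood test, 0 of 17078 tested genes were called at an adjusted p under 0.05 (0%), and 0 of the 8. Before adjustment, 789 genes (4.62%) and 0 of the 8 had p under 0.05 in that test. Over the same 17078 genes, DESeq2 called 35 and limma-voom with quality weights on the libraries called 114. Neither tool called any of the 8. With limma-voom, Cabp5 and Vsx1 were under 0.05 before adjustment but not after it (limma-voom adjusted p = 0.166 and 0.282). In bulk retina, fewer cells of a type and less RNA per cell cannot be told apart.

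Per kilobase of gene model, the only scale on which levels of different genes are compared here, the calcium-binding genes were the most abundant and the Iroquois genes the least. The mean over 7 libraries was 45.2 ± 3.84 CPM per kilobase (SD) for Cabp5 and 41.5 ± 5.01 for Scgn. Those neighbours overlapped, and Cabp5 was the higher in 5 of 7 libraries. Bhlhe23 followed at 20.0 ± 2.88 and Isl1 at 16.2 ± 1.48 CPM per kilobase. Their ranges overlapped too, with Bhlhe23 above Isl1 in 6 of 7 libraries. Vsx1 was at 10.6 ± 1.45 and Lhx4 at 8.61 ± 0.873, overlapping in range although Vsx1 was the higher in 7 of 7 libraries. Irx6 at 5.71 ± 0.755 and Irx5 at 3.13 ± 0.486 CPM per kilobase were lowest. The ranges did not overlap between Scgn and Bhlhe23, Isl1 and Vsx1, Lhx4 and Irx6, or Irx6 and Irx5.

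**Figure D1:**
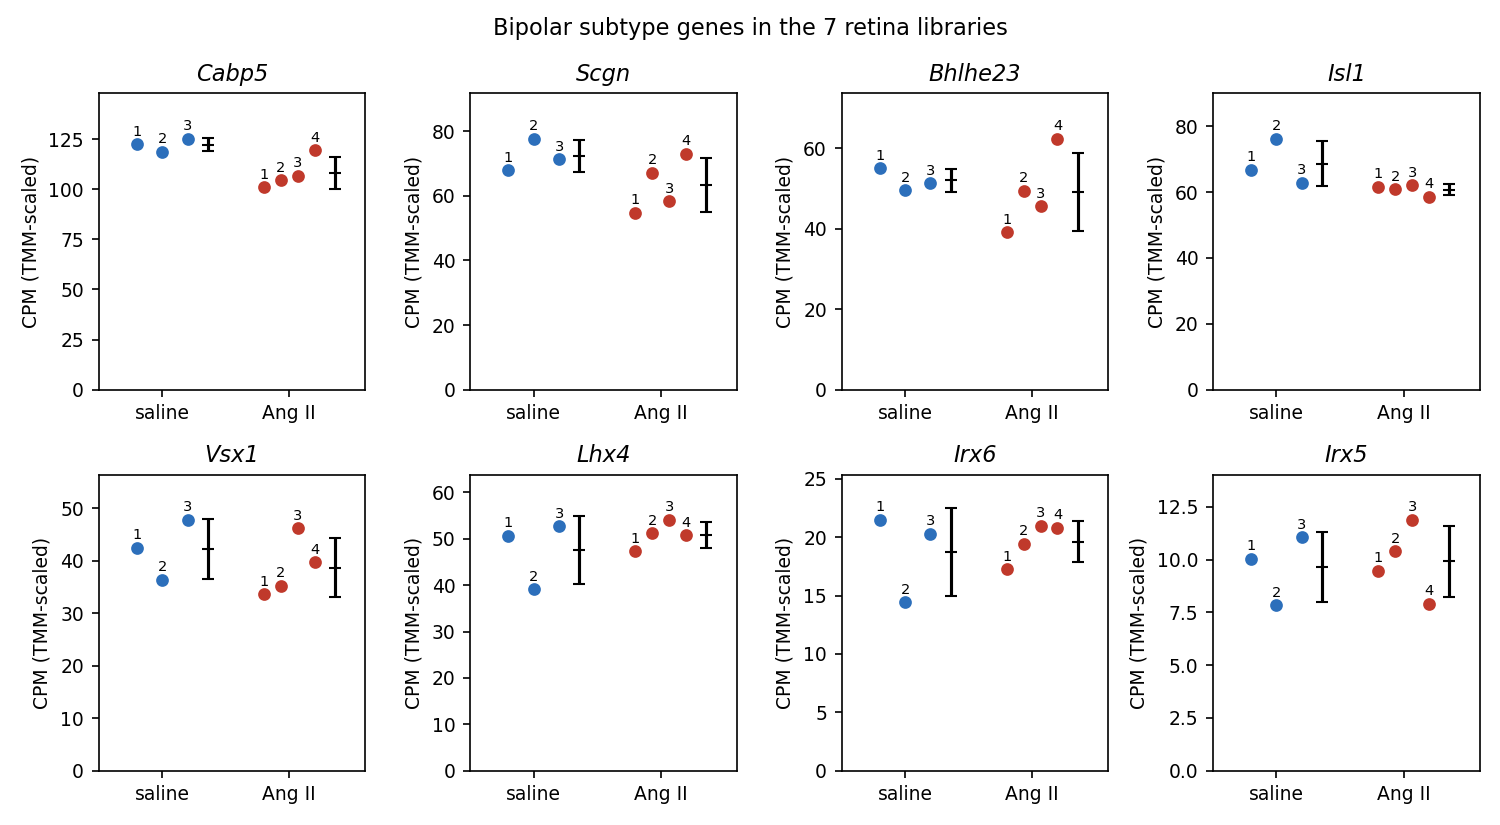
Level of each gene in CPM (vertical axis, from 0, a separate scale per gene) in 3 saline and 4 Ang II libraries. Points are libraries with their replicate number, and the bar at the right of each group is the mean ± SD. Isl1 is the single gene whose groups do not overlap, and saline replicate 2 is the lowest library for Lhx4, Irx5 and Irx6.

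Calcium-binding genes lay lower in Ang II by similar amounts, and neither passed. Cabp5 encodes a calmodulin-like protein of rod bipolar and some cone bipolar cells (ENSMUSG00000005649, chromosome 7, 13398132 to 13408887, plus strand). It was at 101.0, 104.6, 106.9 and 119.7 CPM in replicates 1 to 4 of Ang II and at 122.6, 118.7 and 125.2 CPM in replicates 1 to 3 of saline. Replicates 1 to 3 of Ang II were below every saline library, and replicate 4 fell inside the saline range. Cabp5 thus averaged 108.0 ± 8.13 CPM with Ang II (SD over 4 libraries), against 122.2 ± 3.30 CPM with saline (SD over 3). The log2 fold change, Ang II over saline, was -0.18 ± 0.08 (SE), with an edgeR adjusted p of 0.982 and a 95% interval of -0.36 to 0.0032. Cabp5 was the gene of smallest p among the 8 and ranked 854 of the 17078 tested.

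Scgn encodes secretagogin, an EF-hand calcium sensor of cone bipolar cells (ENSMUSG00000021337, chromosome 13, 23953456 to 23991214, minus strand). Its level was 54.7, 67.2, 58.3 and 73.0 CPM in replicates 1 to 4 of Ang II, and 67.8, 77.7 and 71.3 CPM in replicates 1 to 3 of saline. The same 3 Ang II libraries were below all saline libraries as for Cabp5, and Ang II replicate 4 was again within the saline range. Scgn had a log2 fold change of -0.19 ± 0.11 (edgeR adjusted p = 0.982), with a 95% interval of -0.42 to 0.041. It was -0.14 (adjusted p = 0.937) without saline replicate 2 and -0.10 (adjusted p = 0.940) without Ang II replicate 3 as well. Leaving out 1 library at a time gave -0.26 to -0.13, the largest difference being without Ang II replicate 4 (edgeR adjusted p = 0.724). An antisense gene, Gm11339, lies within Scgn, shares 0 exonic bases with it and had 8 to 55 counts per library.

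Isl1, a LIM-homeodomain factor of ON bipolar cells that ganglion and cholinergic amacrine cells also use (ENSMUSG00000042258, chromosome 13, 116298281 to 116309689, minus strand), was the tightest of the 8 within Ang II. It was at 61.6, 60.8, 62.0 and 58.6 CPM in replicates 1 to 4 of Ang II, and at 66.8, 76.2 and 62.8 CPM in replicates 1 to 3 of saline. Every Ang II library was below every saline library, by a narrow margin between Ang II replicate 3 and saline replicate 3. Of the 8 genes, 1 was separated this way, where 5.91% of all tested genes were separated in either direction, 2.73% with Ang II lower and 3.18% with Ang II higher. Isl1 had a log2 fold change of -0.17 ± 0.09 (edgeR adjusted p = 0.982). Without saline replicate 2, the highest library, its log2 fold change was -0.10 (edgeR adjusted p = 0.944). Without saline replicate 3 it was -0.23 (edgeR adjusted p = 0.624). Other cells that use Isl1 went into the same libraries, and their part in this value was not tested. The log2 fold changes of 9 ganglion cell genes ran from -0.30 to 0.09, with a median of -0.0081 and 4 above 0. Those of 5 starburst amacrine genes ran from -0.08 to 0.02, with a median of -0.0083 and 1 above 0. Of either list, 0 passed and 0 were separated between the groups. Isl2, a relative of Isl1 that ganglion cells also use, is not among those 9 genes. It was lower in every Ang II library than in every saline library (-0.30 ± 0.16, edgeR adjusted p = 0.982).

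Bhlhe23, a basic helix-loop-helix factor needed by rod bipolar cells (ENSMUSG00000045493, chromosome 2, 180774381 to 180776900, minus strand), spread most within Ang II. It was at 39.2, 49.4, 45.6 and 62.3 CPM in replicates 1 to 4 of Ang II, and at 55.1, 49.6 and 51.3 CPM in replicates 1 to 3 of saline. Ang II replicate 4 was above every saline library and the other 3 Ang II libraries were below every one. The log2 fold change of Bhlhe23 was -0.08 ± 0.13 (edgeR adjusted p = 0.983), and it was 0.01 without Ang II replicate 1. Bhlhe23 shares 144 of its 2520 exonic bases with Gm14343 on the same strand, which had 17 to 39 counts per library.

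Vsx1, a paired-like homeodomain factor of cone bipolar cells, mostly OFF types (ENSMUSG00000033080, chromosome 2, 150680702 to 150689360, minus strand), varied inside both groups. Ang II replicates 1 to 4 were at 33.6, 35.2, 46.2 and 39.7 CPM, and saline replicates 1 to 3 at 42.5, 36.4 and 47.8 CPM. The groups overlapped widely, with the lowest saline value, in replicate 2, below those of Ang II replicates 3 and 4. Vsx1 had a log2 fold change of -0.13 ± 0.13 (edgeR adjusted p = 0.982), and -0.23 (adjusted p = 0.926) without saline replicate 2. Leaving out Ang II replicate 3 as well gave -0.32 (adjusted p = 0.885), and without saline replicate 3 alone it was -0.02.

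Lhx4, Irx6 and Irx5 lay slightly higher in Ang II, and each lay below 0 without saline replicate 2. Lhx4 is a LIM-homeodomain factor of several cone bipolar types (ENSMUSG00000026468, chromosome 1, 155698031 to 155751684, minus strand). It was at 47.3, 51.3, 54.1 and 50.8 CPM in replicates 1 to 4 of Ang II, and at 50.7, 39.1 and 52.7 CPM in replicates 1 to 3 of saline. Saline replicate 2 was far below the other 6 libraries, which lay close together. The log2 fold change of Lhx4 was 0.10 ± 0.11 (edgeR adjusted p = 0.982) with a 95% interval of -0.14 to 0.33, and -0.03 (adjusted p = 0.985) without that library.

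Irx6 and Irx5 encode Iroquois homeodomain factors of OFF cone bipolar types and are neighbours on chromosome 8, with 298001 bases between them. Irx6 (ENSMUSG00000031738, 92674288 to 92680956, plus strand) was at 17.2, 19.4, 21.0 and 20.8 CPM in Ang II replicates 1 to 4. In saline replicates 1 to 3 it was at 21.5, 14.4 and 20.3 CPM. As for Lhx4, saline replicate 2 was the lowest of the 7, and the other libraries of both groups overlapped. Irx6 had a log2 fold change of 0.06 ± 0.15 (edgeR adjusted p = 0.985), and -0.09 (adjusted p = 0.965) without saline replicate 2. It shares 152 of its 3370 exonic bases with the antisense gene Gm45505, which had 0 to 4 counts per library.

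Irx5 (ENSMUSG00000031737, 92357625 to 92376286, plus strand) was the scarcest, with 112 to 188 counts per library. Its level was 9.47, 10.4, 11.9 and 7.91 CPM in replicates 1 to 4 of Ang II and 10.03, 7.85 and 11.1 CPM in replicates 1 to 3 of saline. The highest library and the second lowest were both Ang II, so the groups overlapped throughout. Irx5 had a log2 fold change of 0.04 ± 0.18 (edgeR adjusted p = 0.995), with a 95% interval of -0.36 to 0.43. It was -0.09 (adjusted p = 0.972) without saline replicate 2 and -0.06 (adjusted p = 0.9997) without Ang II replicate 3. Irx3, the third gene of this chromosome 8 cluster, averaged 5.40 ± 0.598 CPM with Ang II (SD over 4 libraries) against 4.44 ± 1.42 CPM with saline (SD over 3), and its log2 fold change was 0.28 ± 0.24 (edgeR adjusted p = 0.982).

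**Figure D2:**
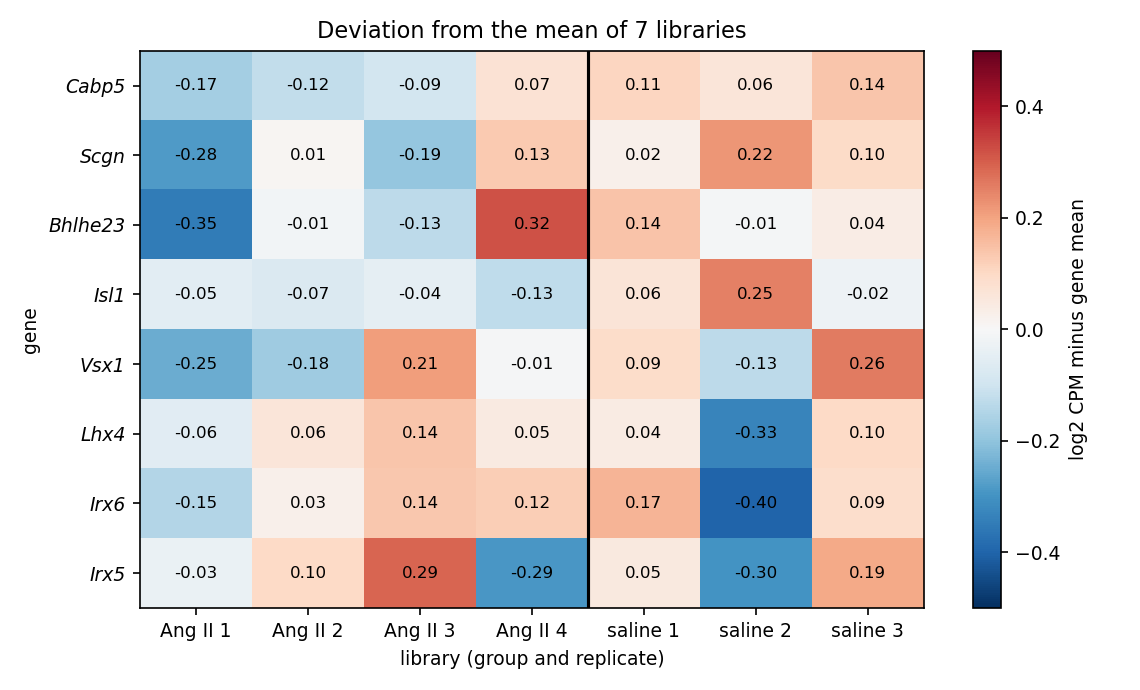
Log2 CPM of each gene (rows) minus its mean over the 7 libraries (columns, the line separates Ang II from saline), printed in each cell and coloured from blue (below the mean) to red (above). Saline replicate 2 holds the lowest cells of Lhx4 (-0.33), Irx6 (-0.40) and Irx5 (-0.30) and the highest cells of Isl1 (0.25) and Scgn (0.22), and all 8 genes are below their mean in Ang II replicate 1.

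In Ang II replicate 1, 0 of the 8 genes were above their 7-library mean, and 4 (Vsx1, Cabp5, Scgn and Bhlhe23) had their lowest value there. In saline replicate 1, 8 of 8 were above the mean, and in saline replicate 3, 7 of 8. Saline replicate 2 had the lowest value of 3 genes (Lhx4, Irx6 and Irx5) and the highest of 2 (Isl1 and Scgn). That library also had the highest Egr1 and the fewest genes with a count, and the part of either in these values was not tested.

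**Figure D3:**
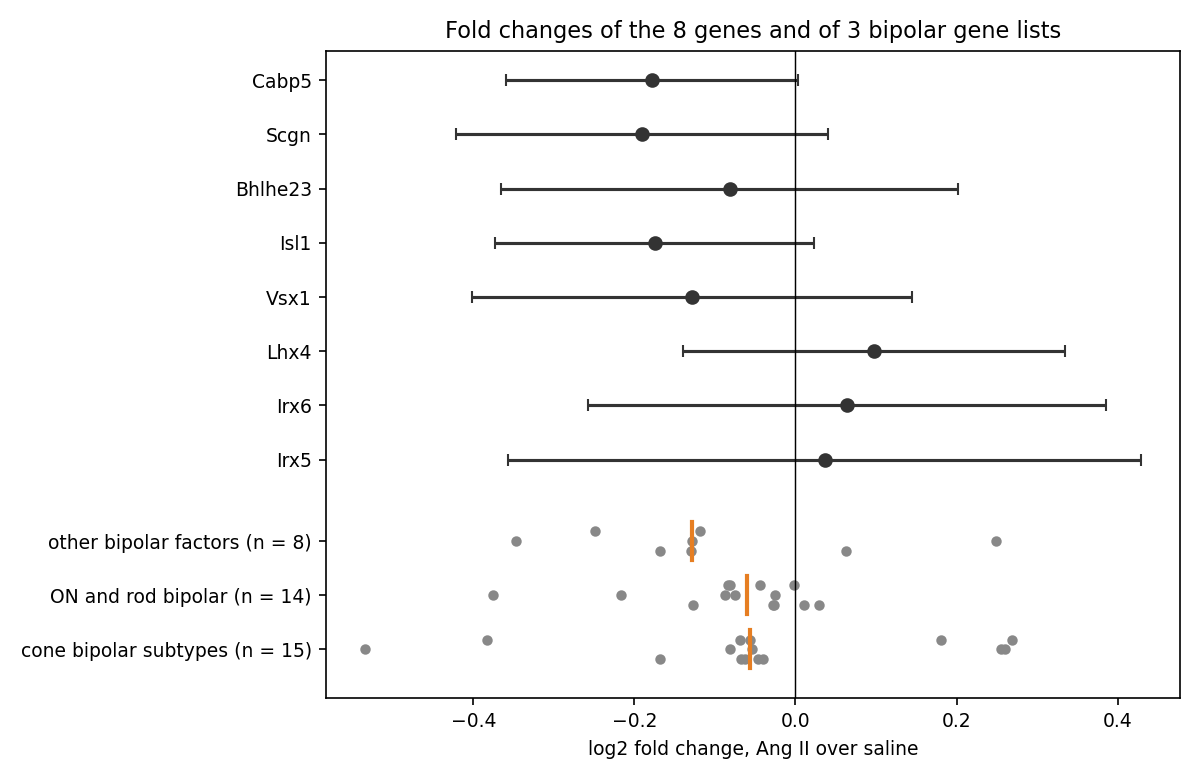
Log2 fold change, Ang II over saline (horizontal axis), of the 8 genes with 95% intervals from edgeR, and below them the tested genes of 3 bipolar lists as grey points with the list median in orange. All 8 intervals include 0, and the list medians lie at -0.13, -0.06 and -0.06.

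The median log2 fold change of the 8 genes was -0.11, with 5 of 8 below 0, beside a median of -0.0048 and 51.1% below 0 over all 17078 tested genes. Without Ang II replicate 1 the median was -0.03 with 4 of 8 below 0, and without saline replicate 3 it was -0.05 with 5 of 8. Without saline replicate 2 it was -0.11 with 8 of 8 below 0. The summed level of the 8 averaged 400.3 ± 28.3 CPM with Ang II (SD over 4 libraries) against 433.2 ± 11.8 CPM with saline (SD over 3), and the groups overlapped in Ang II replicate 4. Over the same libraries, all 12 rod markers and all 10 cone markers lay below 0, with a median of -0.21 and -0.20, and their part in the bipolar values was not tested. Pigment epithelium markers summed to 689.3 to 1212 CPM in Ang II and 135.3 to 631.0 CPM in saline, with 12 of 12 detected. With their mean level as a covariate, 7 of the 8 bipolar genes lay below 0, Bhlhe23 being the one above, and 0 of 8 passed. In that fit Isl1 was at -0.05 ± 0.15 (SE), Scgn at -0.08 ± 0.17 and Vsx1 at -0.30 ± 0.19. The marker sums did not overlap between the groups, so the fit separates marker level from group poorly. The SE of Isl1 was 0.09 without the covariate.

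Cabp5 took 27.7%, 26.3%, 26.3% and 27.6% of the summed counts of the 8 genes in replicates 1 to 4 of Ang II, and 28.1%, 28.3% and 28.3% in replicates 1 to 3 of saline. All Ang II shares were below all saline shares, and the Wilson 95% interval of Ang II replicate 1, 26.7% to 28.8%, spans each saline share whereas that of Ang II replicate 2, 25.2% to 27.3%, does not. Cabp5 was the only gene of the 8 whose shares were separated. No test was run on shares, and no rate of such separation in other gene sets was taken. In CPM, where 5.91% of all tested genes were separated in either direction, Cabp5 overlapped between the groups. The Lhx4 share averaged 12.7% ± 0.692 with Ang II (SD over 4 libraries) against 10.9% ± 1.42 with saline (SD over 3), overlapping, and saline replicate 2 was lowest with 9.31%. The difference in its mean share was 1.79 percentage points, and 0.977 without that library. Vsx1 took 11.4% in Ang II replicate 3 and between 8.66% and 10.8% in the other 6 libraries. Shares are a description, since a gene's share moves when another gene of the set does.

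The 14 genes listed for ON and rod bipolar cells, among them Grm6 and Prkca, gave a reference, put in place of another after the values were seen. How much other cells of the bulk retina add to these genes was not tested. Relative to their mean log2 CPM, Cabp5 differed between Ang II and saline by -0.10, Scgn by -0.11, Isl1 by -0.09, Vsx1 by -0.05 and Bhlhe23 by -0.02. On that scale Lhx4 differed by 0.19, Irx6 by 0.17 and Irx5 by 0.12. Without saline replicate 2 these last differences were 0.04 for Lhx4, -0.03 for Irx6 and -0.04 for Irx5. The smallest two-sided exact permutation p of these 8 comparisons was 0.143, for Cabp5, where 35 arrangements allow 0.0286 at best. The groups overlapped in all 8.

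Genes of 3 bipolar lists and of a list of relatives lay mostly a little below 0, and 0 of any list passed. Over all 17078 tested genes, 51.1% were below 0. The relatives were listed by protein family, whatever their cell type, and some genes are in more than 1 list. Of 8 further transcription factors listed with the bipolar class, 6 were below 0, with a median of -0.13. The list is not confined to bipolar cells, and the part of other retinal cells in these values was not tested. Otx2, which photoreceptors and the pigment epithelium also use, was at 247.2 ± 17.2 CPM with Ang II (SD over 4 libraries) and 236.6 ± 7.91 CPM with saline (SD over 3), a log2 fold change of 0.06 ± 0.09. Sebox, a homeobox gene of this list, was at 38.6 ± 6.18 against 45.9 ± 5.77 CPM (-0.25 ± 0.13, edgeR adjusted p = 0.982). Prdm8, which encodes a PR domain protein, was at 68.2 ± 5.94 against 76.6 ± 3.25 CPM (-0.17 ± 0.09, adjusted p = 0.982). Of those 8 factors, Prdm8 alone had groups that did not overlap, where 2.73% of all tested genes were separated with Ang II lower. Of 14 ON and rod bipolar genes, 12 were below 0, with a median of -0.06. Gng13, which encodes a G protein gamma subunit, had a log2 fold change of -0.38 ± 0.16, and Cabp2, a relative of Cabp5, of -0.22 ± 0.19 (edgeR adjusted p = 0.982 for both). Grm6, the mGluR6 gene of ON bipolar cells, was at -0.13 ± 0.15 and Prkca, the protein kinase C alpha gene of rod bipolar cells, at -0.03 ± 0.09. Of 15 cone bipolar subtype genes, 11 were below 0, with a median of -0.06. Lrrtm1, a leucine-rich repeat synaptic gene, was at -0.53 ± 0.24 and Cck, the cholecystokinin gene, at -0.38 ± 0.18 (edgeR adjusted p = 0.982 for both). Erbb4, a receptor tyrosine kinase gene named after its values were seen, was at 0.27 ± 0.15 (edgeR adjusted p = 0.982). It was the 1 gene of these 15 whose groups did not overlap, where 3.18% of all tested genes were separated with Ang II higher. Among 16 relatives of the 8 genes by protein family, 11 were below 0, with a median of -0.13. Cabp7, a scarce relative of Cabp5 with 11 to 33 counts, was at -0.83 ± 0.37 (edgeR adjusted p = 0.982), and Isl2, the LIM-homeodomain relative of Isl1, at the value given above. Those were the 2 of 16 whose groups did not overlap, both with Ang II lower.

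The spread between libraries was larger than counting error for every one of the 8 genes. For Cabp5, with 1690 to 2049 counts, the coefficient of variation within groups was 5.81% and counting alone gives 2.33%. For Isl1 these were 7.01% and 3.11%. For Irx5 they were 16.9% and 7.94%, and for Bhlhe23, the widest after Irx5, 15.4% and 3.51%.

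**Figure D4:**
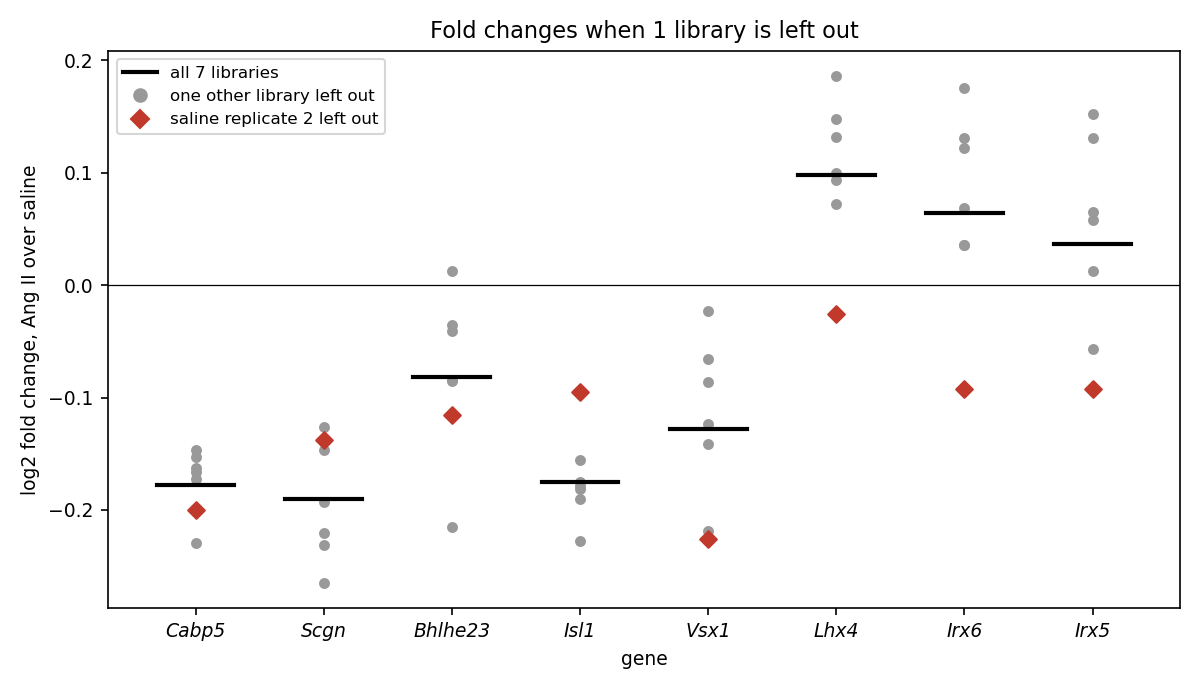
Log2 fold change, Ang II over saline (vertical axis), of each gene with all 7 libraries (black line) and with 1 library left out (points, red diamonds for saline replicate 2). Cabp5, Scgn, Isl1 and Vsx1 lie below 0 in every case, and Lhx4, Irx6 and Irx5 lie above 0 with all libraries and below 0 without saline replicate 2.

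Genes whose log2 CPM followed each member most closely over the 7 libraries were sought among about 10005 tested genes with a mean of at least 10 CPM. Pearson's r was 0.99 between Cabp5 and Ckb, the brain creatine kinase gene, and 0.97 between Cabp5 and Pofut2. For Scgn the closest were Cnnm2 (0.98) and Tgfb2 (0.97), and for Isl1 Ankmy2 (0.98) and Cenpx (0.98). For Bhlhe23 they were Mtss1l (0.99) and the kinesin gene Kif5c (0.99), and for Vsx1 Emc9 (0.98) and Swi5 (0.98). Lhx4 was followed by Polr2i (0.98) and Taf7 (0.98), Irx6 by Zc3h7b (0.98) and Nfic (0.98), and Irx5 by Rad23b (0.98) and Dguok (0.95). With so few libraries such values are common: the 50th closest gene still reached 0.89 for Irx5 and 0.94 for Lhx4. The points share library, depth and scaling.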

How the data were processed

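The authors deposited whole-number counts per gene, 1 column per library, with no normalization, and their gene model lengths. They used the mm10 build with featureCounts 1.5.0-p3, HISAT2 2.0.5 and CASAVA, per the submitters' processing notes. Not given in the sources used here are the annotation release, the strand setting and how multi-mapped reads were treated. Per the labels' protocols, cDNA synthesis had no step that marks the strand, so reads of overlapping or antisense genes cannot be told apart. Columns were matched to samples by description, and 0 were left over.

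All genes were fitted together with edgeR 4.0.16 (filterByExpr, TMM, robust quasi-likelihood test, two-sided, group alone) in R 4.3.3, with Benjamini-Hochberg adjustment over 17078 genes and a threshold of 0.05. The SE was back-calculated from F. CPM uses TMM-scaled library sizes, and log2 CPM a prior count of 2. DESeq2 1.42.0, limma-voom with quality weights (limma 3.58.1), other scalings, no filter, a replicate block, a pigment epithelium covariate and leaving out libraries were alternatives. Wilson 95% intervals cover counting error only: without molecular identifiers, reads may be PCR copies of one molecule.

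In simulated data for Ang II against saline (16777 genes), 26% of 100 genes changed by a log2 fold of 0.5 and 70% of 100 changed by 1 were called in the right direction, with 8 false among 104 calls. The changed genes were drawn at random from those of at least 1 CPM, and each gene was simulated on its own. The members and gene lists were chosen with earlier results of these data known. Named beside the 8 genes are Otx2, Grm6, Prkca, Irx3, the 2 genes of smallest p in each bipolar or family list, the 2 closest genes per member, and Egr1 and Gfap. Outside this rule are Apoe and the genes overlapping a member, given for their counts, and Erbb4. One reference level within the bipolar class is not reported here; the ON and rod bipolar list took its place, a change made after the values were seen. Libraries of a group differed by more than sampling noise in every pair (chi-square over its degrees of freedom, 10.1 to 21.5).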

Additional observations from a re-analysis of the deposited data

Results flagged for a closer look

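The share of Vsx1 in the summed counts of the 8 genes was 11.4% in Ang II replicate 3, set apart from the other 3 Ang II libraries (8.84% to 9.22%) by a gap of 0.849 of the group's range, against a critical value of 0.829 (Dixon, 4 samples). It was 1 of 16 groups of values examined, and chance gives about 1 in 20. The same library had the highest Gfap, at 79.8 CPM, and saline replicate 3 had a Vsx1 share of 10.8%.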

How the results depend on the processing

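Under all 15 alternatives 0 of the 8 genes were called, with a smallest adjusted p of 0.166 (Cabp5, limma-voom with quality weights), and their median log2 fold change stayed between -0.15 and -0.03. The 15th, leaving out both Ang II replicate 3 and saline replicate 2, was chosen after seeing the data. Cabp5, Scgn, Isl1 and Vsx1 kept their direction in all 15, with ranges of -0.23 to -0.13 for Cabp5, -0.27 to -0.08 for Scgn, -0.23 to -0.05 for Isl1 and -0.32 to -0.02 for Vsx1. Over all genes, where edgeR called 0, the count was 98 with no filter on low counts, 35 with DESeq2 and 114 with limma-voom and quality weights, and 0 to 117 when each library was left out (117 without saline replicate 3). With the replicate block, which drops Ang II replicate 4, edgeR called 57 genes and 0 of the 8. Same-numbered libraries did not deviate together (correlations of -0.07, -0.02 and 0.05), and not every library correlated best with its own number, so the numbers were not taken as pairs.

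Directions turned as follows, and the cause was not tested. With the pigment epithelium covariate Bhlhe23 was at 0.073 ± 0.20 (SE), Lhx4 at -0.089 ± 0.17, Irx5 at -0.35 ± 0.28 and Irx6 at -0.058 ± 0.24. With limma-voom and quality weights, which change the tool and the weight of each library together, Irx5 was at -0.011 and Irx6 at -0.10. Without Ang II replicate 3 and saline replicate 2 together, Lhx4 was at -0.055, Irx5 at -0.19 and Irx6 at -0.13. Leaving out 1 library gave -0.22 to 0.013 for Bhlhe23, -0.025 to 0.19 for Lhx4, -0.092 to 0.15 for Irx5 and -0.093 to 0.17 for Irx6. Relative to the ON and rod bipolar list, leaving out 1 library gave -0.17 to 0.060 for Vsx1, -0.11 to 0.0698 for Bhlhe23, -0.041 to 0.25 for Irx5 and -0.033 to 0.29 for Irx6. The simulated recovery of a log2 fold of 0.5, 26%, was over genes drawn at random, so it is not a rate for these 8 genes. Their differences, at most 0.19 in size, had an SE of 0.08 to 0.18. All 8 of their 95% intervals included 0, so differences of this size were not resolved.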
